A study of Mus musculus with 18 samples.

Results

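The 8 genes described here encode subunits of the receptors for GABA, the main inhibitory transmitter of the brain. They were found by their Ensembl identifiers in the count and level tables of both assays, among 55153 genes of the RNA-seq table. *Gabra2*, *Gabra3*, *Gabra4*, *Gabra5*, *Gabrb1* and *Gabrb2* encode 6 subunits of the GABA-A receptor, and *Gabbr1* and *Gabbr2* encode the 2 subunits of the GABA-B receptor. All 8 had complete counts in the 18 libraries and passed the filter on low counts in every comparison.

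The GABA-A receptor is a chloride channel built of several subunits around a pore. GABA binds between alpha and beta subunits, and the kind of alpha subunit sets the affinity for GABA, the response to benzodiazepines and where on the neuron the receptor sits. The GABA-B receptor is a G protein-coupled receptor in which *Gabbr1* binds GABA, while *Gabbr2* couples to the G protein and brings *Gabbr1* to the cell surface. In the embryonic cortex GABA acts before most synapses have formed, and it depolarizes immature neurons and progenitors because their chloride level is high.

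Cerebral cortices of E15.5 mouse embryos were analysed by RNA-seq, which measures transcript levels, and by Ribo-seq, which counts the mRNA fragments protected by ribosomes. Ctrl embryos were wild type, *F*-cKO embryos were Fto(f/f, Emx1-cre) and *M*-cKO embryos were Mettl3(f/f, Emx1-cre), with 3 libraries per group in each assay. *Fto* encodes an eraser and *Mettl3* a writer of the m6A mark on RNA. *Emx1-Cre* acts in the lineage of cortical excitatory neurons, so cortical interneurons, vessels and microglia keep both genes. The labels give the strain C57BL/6 for all samples, while the study's methods describe a mixed C57/BL6 and 129 background for the floxed mice. Samples were labelled as biological repeats, and the study's methods give the Ribo-seq samples as coming from "1 L", which may stand for 1 litter. *P* values may then measure spread within a litter only.

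RNA-seq libraries held 18504094 to 22592406 counts and Ribo-seq libraries 10973699 to 35853227. The smallest was Ribo-seq *F*-cKO replicate 2, which stood apart. It differed over 2-fold from its sister libraries in 33.3% and 34.7% of genes, whereas the sisters differed from each other in 10.3%. *Fto* FPKM was 8.37 to 11.2 in Ctrl and 3.26, 7.56 and 2.43 in *F*-cKO, so the RNA-seq library labelled *F*-cKO replicate 2 kept more *Fto* RNA than its sisters. This is another library than the Ribo-seq replicate 2 just described. *Fto* footprints were at 17.6 to 25.9 RPKM in Ctrl and 3.91, 2.11 and 4.04 in *F*-cKO, lowest in Ribo-seq replicate 2. *Mettl3* FPKM was higher in *M*-cKO (7.82 to 8.61) than in Ctrl (5.07 to 6.43), whereas *Mettl3* footprints were lower (6.02 to 6.78 RPKM compared with 9.16 to 9.93). Markers of excitatory cortical neurons (8 genes) summed to 762 to 784 FPKM in Ctrl, whereas *F*-cKO libraries reached 855 to 876 and *M*-cKO libraries 953 to 976. In the *M*-cKO fit 5 of the 8 were higher and 2 lower, in the *F*-cKO fit 4 were higher and 0 lower, and their footprints summed to 916 to 1043 RPKM in Ctrl, 585 to 908 in *F*-cKO libraries and 737 to 999 in *M*-cKO libraries. Markers of interneurons and the ganglionic eminence (10 genes) summed to 215 to 237, 138 to 230 and 264 to 329 FPKM in the same order, and those of the striatum (8 genes) to 20.2 to 24.8 in Ctrl and, overlapping it, 21.0 to 32.9 in *F*-cKO, while *M*-cKO sums reached 33.4 and the lowest was just above Ctrl. No marker of these 3 lists was at 0 in all libraries.

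*Gabra2*, *Gabra4* and *Gabrb1* lie in 1 cluster on chromosome 5, together with *Gabrg1* (GRCm38.p6, the coordinates of mm10). *Gabra2* spans chr5:70958392-71095849, *Gabra4* chr5:71569734-71658308 and *Gabrb1* chr5:71657921-72149572. *Gabra4* and *Gabrb1* are transcribed in opposite directions and their gene spans overlap by 388 bases at their starts. The sources used here do not say if counting took strand into account, so reads from these 388 bases cannot be assigned to either gene with certainty. The other members lie apart from them, *Gabbr2* on chr4:46662318-46991714, *Gabra5* on chr7:57407669-57591016, *Gabrb2* on chr11:42419515-42632591, *Gabbr1* on chr17:37045966-37074305 and *Gabra3* on chrX:72432676-72656919.

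The start regions of the 3 members of the chromosome 5 cluster are shown because RNA of all 3 was lower in *M*-cKO cortices. Each window runs from 250 bases before to 50 bases after a RefSeq start, on the strand of the gene, at chr5:71095800-71096099 for *Gabra2* (minus strand), chr5:71658259-71658558 for *Gabra4* (minus strand) and chr5:71657671-71657970 for *Gabrb1* (plus strand). Capitals mark matches, on either strand, to a GC box (GGGCGG) or a CCAAT box (CCAAT).
Gabra2: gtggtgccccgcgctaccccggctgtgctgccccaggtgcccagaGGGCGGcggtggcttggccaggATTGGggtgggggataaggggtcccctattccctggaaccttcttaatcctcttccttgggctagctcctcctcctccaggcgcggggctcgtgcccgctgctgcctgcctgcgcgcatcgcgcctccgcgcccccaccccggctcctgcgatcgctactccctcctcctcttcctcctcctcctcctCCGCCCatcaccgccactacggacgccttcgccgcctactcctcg
Gabra4: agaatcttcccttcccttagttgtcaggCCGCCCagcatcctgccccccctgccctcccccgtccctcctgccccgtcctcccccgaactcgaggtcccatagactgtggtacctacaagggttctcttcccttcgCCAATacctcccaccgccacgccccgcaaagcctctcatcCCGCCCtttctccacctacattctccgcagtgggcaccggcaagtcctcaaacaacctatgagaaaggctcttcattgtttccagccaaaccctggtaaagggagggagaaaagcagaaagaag
Gabrb1: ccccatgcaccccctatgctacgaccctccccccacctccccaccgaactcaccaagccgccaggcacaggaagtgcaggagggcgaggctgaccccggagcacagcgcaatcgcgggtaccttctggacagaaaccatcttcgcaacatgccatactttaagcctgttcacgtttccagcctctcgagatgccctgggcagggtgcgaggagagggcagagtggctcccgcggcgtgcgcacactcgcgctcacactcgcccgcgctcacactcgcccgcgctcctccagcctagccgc

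The *Gabra2* and *Gabra4* windows each held 2 GC boxes and 1 CCAAT box, and the *Gabrb1* window held neither. Over 32817 start windows of the genome table, 35.6% held a GC box and 37.4% a CCAAT box. The windows of all 3 genes were rich in G and C, at 70.0% for *Gabra2*, 58.7% for *Gabra4* and 66.0% for *Gabrb1*, compared with a median of 52.7%. They held 25, 12 and 25 CG pairs, compared with a median of 7. None of the 3 windows held TATAAA (13.6% of all windows), TGACGTCA (1.79%), CAGCTG (16.3%) or CAGATG (17.2%). The *Gabrb1* window lies inside the *Gabra4* gene span, and a further *Gabrb1* start window at chr5:71699682-71699981 had 50.3% G and C and none of these motifs.

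In Ctrl cortices *Gabbr1*, the GABA-binding subunit of the GABA-B receptor, had the highest transcript level of the 8 members, at 43.5, 40.9 and 44.7 FPKM (mean 43.0 ± 1.97 SD, n = 3). It made up 51.6% of the summed FPKM of the members and stood above 95.8% of genes with a value over 0. Next came *Gabra5* (9.05 ± 2.56 SD), *Gabra3* (8.41 ± 1.40 SD), *Gabra2* (7.94 ± 1.95 SD) and *Gabbr2* (7.41 ± 0.778 SD), whose libraries overlapped from each to the next. *Gabrb2* (3.43 ± 0.628 SD) and *Gabra4* (2.48 ± 0.496 SD) also overlapped, and *Gabrb1* was lowest (1.59 ± 0.289 SD), below every *Gabra4* library.

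**Figure D1:**
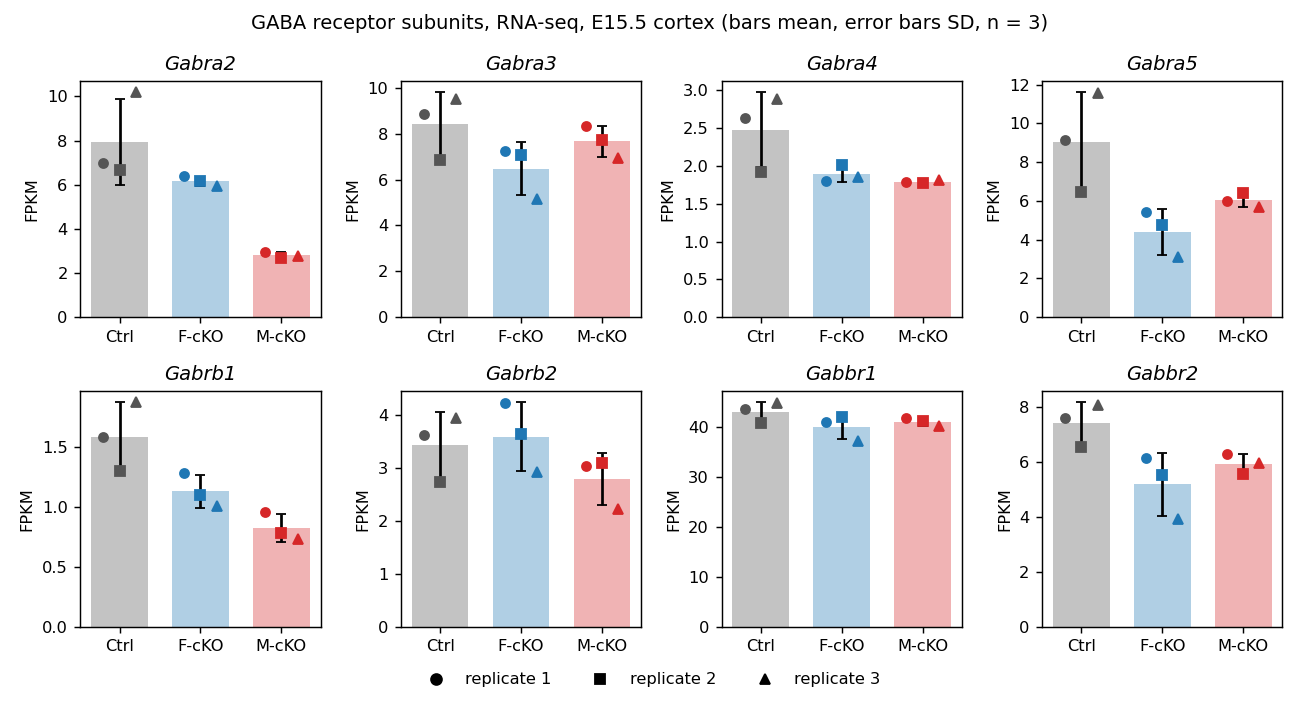
RNA-seq FPKM of the 8 subunit genes by genotype (Ctrl, *F*-cKO, *M*-cKO), with bars for the mean, error bars for the SD (n = 3) and 1 symbol per replicate number. *Gabra2* is at 2.68 to 2.97 in *M*-cKO, below every other library, while *Gabbr1* is between 37.2 and 44.7 in all 9.

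Footprint levels gave another order. *Gabbr1* was again highest in Ctrl, at 7.22, 6.71 and 7.18 RPKM, but by a smaller margin. *Gabrb2* moved from the sixth place to the second, at 4.85, 4.57 and 5.43 RPKM, above every library of *Gabra5* (3.52 ± 0.563 SD), *Gabra2* (3.03 ± 0.489 SD) and *Gabra3* (2.74 ± 0.128 SD). *Gabra5* overlapped *Gabra2*, and *Gabra2* overlapped *Gabra3*. *Gabbr2* (1.76 ± 0.217 SD), *Gabra4* (1.33 ± 0.103 SD) and *Gabrb1* (1.02 ± 0.0772 SD) followed without overlap.

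Translational efficiency (TE) was taken as mean footprint RPKM divided by mean transcript FPKM. It was 1.44 for *Gabrb2* in Ctrl, the only member above the median of 0.757 over 12952 genes with an FPKM of at least 1. *Gabrb1* was at 0.645, *Gabra4* at 0.536, *Gabra5* at 0.389, *Gabra2* at 0.381 and *Gabra3* at 0.326. Both GABA-B subunits had the lowest ratios, 0.237 for *Gabbr2* and 0.164 for *Gabbr1*, at or above 20.3% and 13.4% of genes. FPKM and RPKM were normalized separately by the authors, so these ratios order genes within a group and have no test. Both units used the same relative gene lengths, while the study reports that footprints lay mainly in coding sequence. The ratios, and the order of footprint levels, therefore also depend on the coding share of each transcript. They are not an order of efficiency alone.

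**Figure D2:**
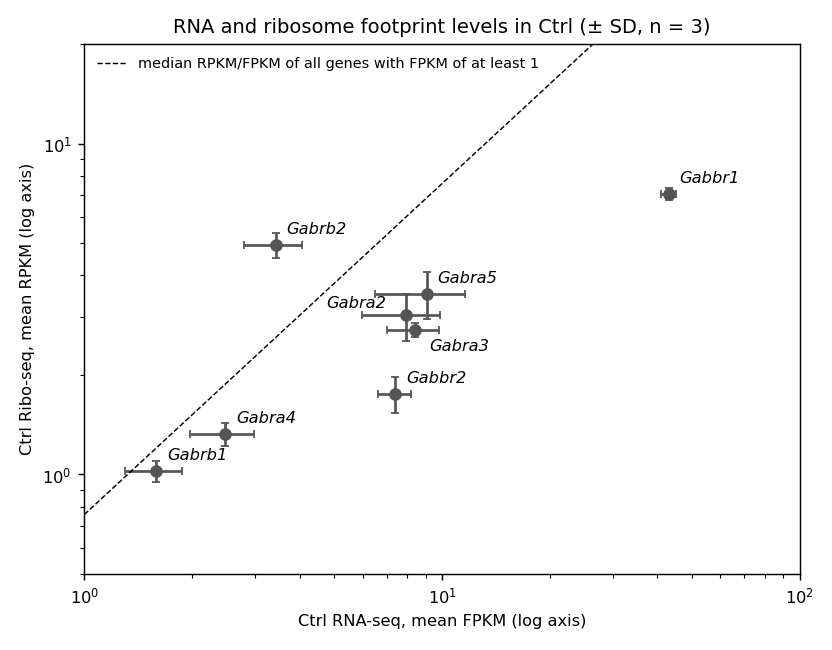
Mean Ctrl RNA-seq FPKM (horizontal, log axis) and mean Ctrl Ribo-seq RPKM (vertical, log axis) of the 8 members, with error bars for the SD (n = 3) and a dashed line at the median ratio of 0.757. *Gabrb2* lies above the line, and *Gabbr1* lies farthest below it.

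To ask how loss of *Mettl3* changed subunit transcripts, *M*-cKO cortices were compared to Ctrl. RNA of 5 of the 8 members was lower in *M*-cKO and of 0 was higher, and in the same fit 14.1% of 16968 genes were lower and 15.5% higher (edgeR quasi-likelihood test, with 0.05 as the threshold on *P* adjusted by Benjamini-Hochberg). The median log2 fold change was −0.40 over the members and −0.01 over all genes tested. The members called lower were *Gabra2*, *Gabrb1*, *Gabra5*, *Gabra4* and *Gabbr2*.

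*Gabra2*, an alpha subunit found at synapses and on the axon initial segment, was at 6.97, 6.67 and 10.2 FPKM in Ctrl, 6.37, 6.16 and 5.96 in *F*-cKO and 2.97, 2.68 and 2.77 in *M*-cKO. The 3 *M*-cKO libraries lay far below all 6 others. The log2 fold change in *M*-cKO compared to Ctrl was −1.51 ± 0.14 SE (35.2% of Ctrl, adjusted *P* = 5.51e-05, edgeR quasi-likelihood test). It was between −1.61 and −1.28 in all 11 alternative analyses, and called in each.

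*Gabrb1*, the beta subunit with the lowest transcript level here, was at 1.59, 1.30 and 1.88 FPKM in Ctrl, 1.28, 1.11 and 1.01 in *F*-cKO and 0.958, 0.784 and 0.735 in *M*-cKO. The groups formed 3 steps with no overlap. In *M*-cKO it was 51.7% of Ctrl (log2 fold change −0.95 ± 0.15 SE, adjusted *P* = 8.04e-04 by edgeR). This call held in all 11 alternatives too.

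*Gabra4*, an alpha subunit of receptors outside synapses and the head-to-head neighbour of *Gabrb1*, was at 2.63, 1.92 and 2.88 FPKM in Ctrl, 1.81, 2.02 and 1.86 in *F*-cKO and 1.79, 1.77 and 1.81 in *M*-cKO. The *M*-cKO libraries lay just under the lowest Ctrl library, replicate 2, and close together. The log2 fold change was −0.47 ± 0.14 SE (adjusted *P* = 0.0290 by edgeR), the change was called in 6 of 11 alternatives, and adjusted *P* values ranged from 0.00294 to 0.125.

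*Gabra5*, which is known for receptors outside synapses in hippocampus and cortex, was at 9.17, 6.44 and 11.5 FPKM in Ctrl, 5.41, 4.75 and 3.10 in *F*-cKO and 6.00, 6.41 and 5.70 in *M*-cKO. All knockout libraries lay under the lowest Ctrl library, *M*-cKO replicate 2 by very little, and Ctrl itself was widely spread. In *M*-cKO the log2 fold change was −0.59 ± 0.17 SE (adjusted *P* = 0.0222 by edgeR), called in 6 of 11 alternatives with adjusted *P* values up to 0.0873.

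The GABA-B subunit *Gabbr2* was at 7.59, 6.56 and 8.09 FPKM in Ctrl, 6.14, 5.53 and 3.92 in *F*-cKO and 6.29, 5.57 and 5.98 in *M*-cKO. No knockout library reached the lowest Ctrl library. The log2 fold change in *M*-cKO was −0.33 ± 0.09 SE (79.8% of Ctrl, adjusted *P* = 0.0168 by edgeR), called in 7 of 11 alternatives with adjusted *P* values up to 0.0925.

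The other 3 members did not pass the test in *M*-cKO. *Gabbr1*, the partner of *Gabbr2*, was at 41.8, 41.3 and 40.2 FPKM in *M*-cKO, within the range of Ctrl except for replicate 3, with a log2 fold change of −0.08 and an interval (2 SE on each side) of −0.19 to 0.04. *Gabra3*, an alpha subunit common in the developing brain, was at 8.87, 6.84 and 9.52 FPKM in Ctrl and 8.32, 7.72 and 6.96 in *M*-cKO, all within Ctrl (log2 fold change −0.14, interval −0.38 to 0.10). *Gabrb2*, a beta subunit of many adult receptors, was at 3.62, 2.73 and 3.94 FPKM in Ctrl and 3.04, 3.10 and 2.22 in *M*-cKO, overlapping Ctrl (log2 fold change −0.31 ± 0.15 SE, adjusted *P* = 0.160 by edgeR).

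All 8 members were highest in Ctrl replicate 3 and lowest in Ctrl replicate 2 among the Ctrl RNA-seq libraries, and their summed FPKM was 83.9, 73.3 and 92.8 in Ctrl replicates 1 to 3. Markers of cortical progenitors (8 genes) summed to 342, 352 and 248 FPKM in the same libraries, erythroid markers (5 genes) to 484, 878 and 475, and meningeal markers (4 genes) to 7.72, 14.7 and 7.63. The part of these cell types in the spread of the members was not tested. When Ctrl replicate 1, Ctrl replicate 3 or *M*-cKO replicate 2 was left out, 2 members remained called lower in *M*-cKO, *Gabra2* and *Gabrb1*. When *M*-cKO replicate 1 or replicate 3 was left out there were 3, with *Gabbr2* added, and without Ctrl replicate 2 there were 6, the 5 named above and *Gabrb2*. Over all genes 3546 to 4657 were called in these fits, compared with 5024 in the main fit.

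Interneuron and ganglionic eminence markers moved in *M*-cKO as well, with 9 of 10 higher and 1 lower (median log2 fold change 0.99), and 6 of 8 striatal markers were higher and 1 lower (median 1.89). Of the 8 progenitor markers 3 were higher and 0 lower (median 0.31), and they summed to 371 to 428 FPKM in *M*-cKO, above all Ctrl libraries. Progenitors, interneurons and striatal cells also express GABA-A subunits, and their part in the values of the members was not tested. In bulk cortex, fewer cells of a type and less RNA per cell cannot be told apart.

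Loss of *Fto* was examined in the same way. Compared to Ctrl, RNA of 3 of 8 members was lower in *F*-cKO, *Gabra5*, *Gabbr2* and *Gabrb1*, and of 0 was higher, while 9.57% of 16944 genes were lower and 11.5% higher (edgeR quasi-likelihood test, adjusted *P* below 0.05). The median over the members was −0.39, and over all genes −0.01. Both knockouts were compared to the same Ctrl libraries, so these calls are not independent of those in *M*-cKO.

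*Gabra5* fell by 1.04 on the log2 scale in *F*-cKO (± 0.23 SE, 48.5% of Ctrl, adjusted *P* = 0.0138 by edgeR). It was the largest change of a member in *F*-cKO RNA-seq, and was called in 10 of 11 alternatives, with the exception of the fit without Ctrl replicate 3. *Gabbr2* had a log2 fold change of −0.52 ± 0.15 SE (adjusted *P* = 0.0322) and was called in 7 of 11. *Gabrb1* had a log2 fold change of −0.50 ± 0.14 SE (adjusted *P* = 0.0354) and was called in 6 of 11. *F*-cKO replicate 3 was the lowest of the 9 RNA-seq libraries for *Gabra5*, *Gabbr2*, *Gabra3* and *Gabbr1*.

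*Gabra2*, *Gabra4* and *Gabra3* had log2 fold changes of −0.37 ± 0.14, −0.40 ± 0.15 and −0.39 ± 0.15 SE in *F*-cKO, with adjusted *P* values of 0.0877, 0.0894 and 0.0972 by edgeR. *Gabra3* was at 7.23, 7.06 and 5.15 FPKM and overlapped Ctrl, as did *Gabra4*, whereas all *F*-cKO libraries of *Gabra2* lay below Ctrl. *Gabrb2* was at 4.22, 3.64 and 2.91 FPKM, with replicate 1 above the range of Ctrl (2.73 to 3.94) and the others within it. Its log2 fold change was 0.06 (interval −0.26 to 0.37). *Gabbr1* was at 41.0, 42.0 and 37.2 FPKM, with replicate 3 below Ctrl and a log2 fold change of −0.11 (interval −0.25 to 0.02).

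Without Ctrl replicate 3 no member was called in *F*-cKO, without Ctrl replicate 1 or *F*-cKO replicate 2 only *Gabra5* was, without *F*-cKO replicate 3 *Gabra5* and *Gabbr2* were, and without Ctrl replicate 2 there were 6. With no filter on low counts there were also 6, the 3 above with *Gabra2*, *Gabra3* and *Gabra4*. Over all genes 3576 were called in the main fit and 4430 with no filter. In the named fits with 1 library left out there were 1543 (without Ctrl replicate 3) to 2781 (without *F*-cKO replicate 3). Markers of cortical progenitors were higher in *F*-cKO for 6 of 8 genes (median log2 fold change 0.60), and summed to 430 to 493 FPKM compared with 248 to 352 in Ctrl. Of 4 meningeal markers 2 were lower in *F*-cKO and 0 higher (median −1.25), and they summed to 1.65 to 6.12 FPKM, below the 7.63 to 14.7 of Ctrl. Sums of endothelial markers (4 genes) were 31.0 to 35.9 FPKM in *F*-cKO and 43.1 to 47.5 in Ctrl, those of erythroid markers 357 to 439 and 475 to 878, and those of thalamic markers (5 genes) 15.2 to 19.8 and 12.6 to 13.7, with no overlap. Of these markers 1 endothelial and 1 erythroid gene were lower and 2 thalamic genes higher. Of 8 striatal markers 3 were higher in *F*-cKO and 0 lower (median 0.87), and of 10 interneuron and ganglionic eminence markers 3 were higher and 1 lower (median 0.19). The part of these cell types in the lower values of the members was not tested.

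The knockouts were then compared with each other. RNA of *Gabra2* was lower in *M*-cKO than in *F*-cKO (log2 fold change −1.14 ± 0.08 SE, adjusted *P* = 3.22e-05 by edgeR), as was that of *Gabrb1* (−0.46 ± 0.14 SE, adjusted *P* = 0.0295). These 2 of 8 members were lower and 0 higher, and 14.3% of 16802 genes were lower and 13.1% higher in this fit. The *Gabra2* difference was called in all 11 alternatives, within −1.17 to −1.10, and *Gabrb1* in 7 of 11. *Gabra5* lay in the other direction, with all 3 *M*-cKO libraries above all *F*-cKO libraries (log2 fold change 0.44 ± 0.17 SE), and did not pass the test (adjusted *P* = 0.0783, from 0.00500 to 0.186 over the alternatives). The remaining 5 had log2 fold changes between −0.37 (*Gabrb2*) and 0.24 (*Gabra3*). In the same fit 8 of 10 interneuron and ganglionic eminence markers were higher in *M*-cKO and 0 lower (median 0.65), and 1 of 8 progenitor markers was higher and 5 lower (median −0.37). All 5 erythroid markers were higher (median 0.55), as were 2 of 4 meningeal markers (median 1.57). Their part in the differences of the members was not tested.

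Whether neighbouring genes moved with the chromosome 5 cluster was examined over 15 other protein-coding genes tested within 2 Mb of it. In *M*-cKO 3 of them were lower and 2 higher, near the shares over all genes (14.1% lower and 15.5% higher). Their median log2 fold change was −0.04, compared with −1.51, −0.47 and −0.95 for *Gabra2*, *Gabra4* and *Gabrb1*. *Gabrg1*, the gamma subunit gene next to *Gabra2*, was at 0.35 ± 0.33 SE (adjusted *P* = 0.477 by edgeR). *Commd8*, the nearest tested gene on the other side of *Gabrb1*, was at −0.04 ± 0.06 SE (adjusted *P* = 0.662). In *F*-cKO 1 of the 15 was lower and 3 were higher, with a median of −0.09 (9.57% lower and 11.5% higher over all genes).

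**Figure D3:**
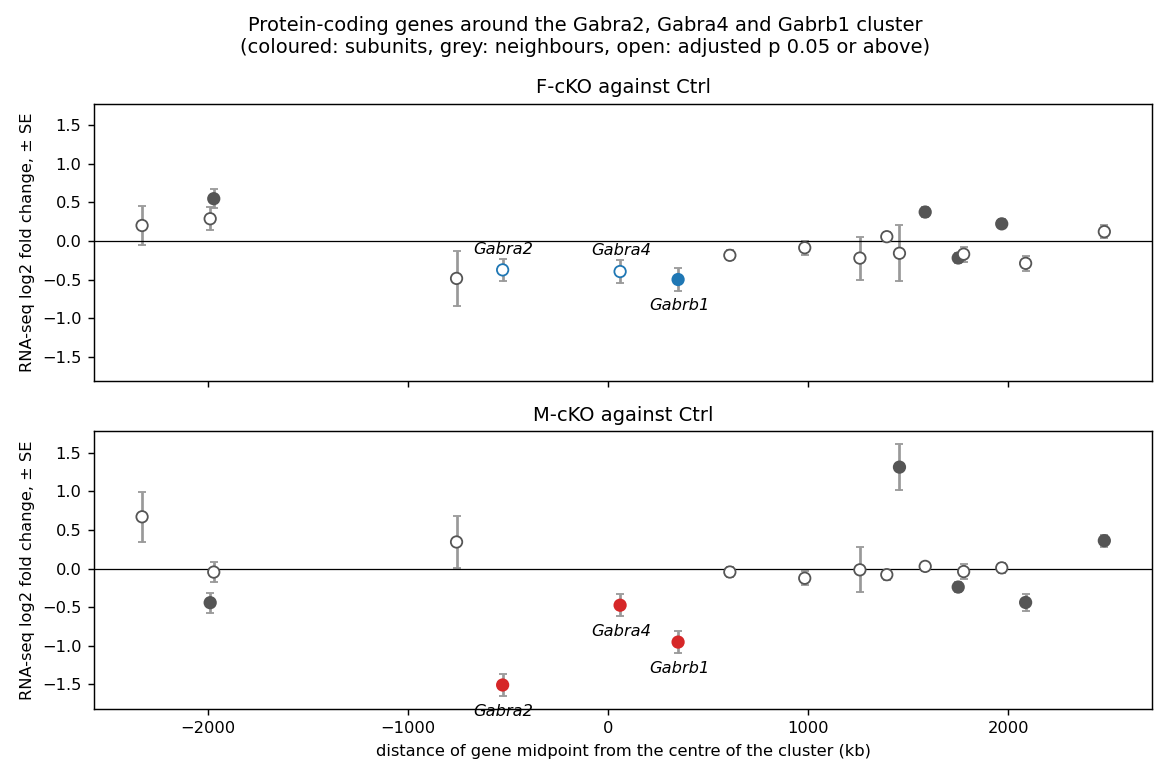
RNA-seq log2 fold change (± SE) of protein-coding genes around the *Gabra2*, *Gabra4* and *Gabrb1* cluster, by distance of the gene midpoint from the centre of the cluster in kb, for *F*-cKO (top) and *M*-cKO (bottom) against Ctrl. Filled symbols have an adjusted *P* below 0.05. In *M*-cKO the 3 subunit genes lie at −1.51, −0.47 and −0.95, with 15 neighbours that include *Gabrg1*. *Gabra4* (−0.47 ± 0.14 SE) is not set apart from the neighbours *Guf1* (−0.44 ± 0.13 SE) and *Sgcb* (−0.44 ± 0.11 SE).

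At the level of ribosome footprints, 2 of 8 members were lower in *M*-cKO than in Ctrl and 0 higher, and 7.50% of 14314 genes were lower and 7.13% higher (edgeR quasi-likelihood test). They were the same 2 members that were lowest relative to Ctrl in RNA-seq. The median log2 fold change over the members was −0.54, compared with 0.00 over all genes.

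*Gabra2* was at 2.61, 2.91 and 3.57 RPKM in Ctrl and 2.03, 1.81 and 2.27 in *M*-cKO, with no overlap. The log2 fold change was −0.56 ± 0.15 SE (67.8% of Ctrl, adjusted *P* = 0.0468 by edgeR). *Gabrb1* was at 1.04, 1.10 and 0.943 RPKM in Ctrl and 0.513, 0.637 and 0.769 in *M*-cKO, also with no overlap (−0.67 ± 0.18 SE, adjusted *P* = 0.0497). Both stood just under the threshold, each was called in 4 of 12 alternatives, and adjusted *P* values reached 0.570 for *Gabra2* and 0.402 for *Gabrb1* when all groups were fitted together. In that fit 35 of 14326 genes were called.

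Footprints of 3 further members had negative fold changes in *M*-cKO and did not pass the test. *Gabrb2* was at 3.23, 2.76 and 4.28 RPKM, all below Ctrl (log2 fold change −0.52, adjusted *P* = 0.0670 by edgeR). *Gabra5* was at 2.39, 1.85 and 2.71 RPKM, compared with 3.87, 2.87 and 3.82 in Ctrl (−0.59, adjusted *P* = 0.0794). *Gabra4* was at 0.579, 0.663 and 1.11 RPKM, compared with 1.35, 1.21 and 1.42 (−0.74, adjusted *P* = 0.0942). In all 3 the *M*-cKO libraries lay below Ctrl, with replicate 3 nearest to it.

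For both GABA-B subunits and *Gabra3* the footprint values were not lower. *Gabbr1* was at 7.72, 7.77 and 7.81 RPKM in *M*-cKO, each above the highest Ctrl library, by a log2 fold change of 0.15 (interval −0.03 to 0.34). *Gabra3* was at 3.39, 2.85 and 3.63 RPKM compared with 2.74, 2.61 and 2.87 in Ctrl, with replicate 2 alone inside the range of Ctrl (log2 fold change 0.27, adjusted *P* = 0.201 by edgeR). *Gabbr2* was at 1.78, 2.17 and 1.97 RPKM compared with 1.82, 1.51 and 1.93, and the groups overlapped (0.18, interval −0.15 to 0.52). Leaving out any 1 of Ctrl replicates 1 to 3 or *M*-cKO replicate 1 or 2 left no member called in *M*-cKO Ribo-seq, and without *M*-cKO replicate 3 there were 4, *Gabra2*, *Gabrb1*, *Gabrb2* and *Gabra4*. The fits with no member called had 177 to 1295 genes called. The fit without *M*-cKO replicate 3 had 2547, compared with 2093 in the main fit. Interneuron and ganglionic eminence markers in Ribo-seq summed to 128 to 186 RPKM in Ctrl and 221 to 310 in *M*-cKO, and 5 of 10 were higher and 1 lower. Markers of Cajal-Retzius neurons (4 genes) summed to 52.07 to 66.02 RPKM in Ctrl and 31.15 to 43.77 in *M*-cKO, and 1 was lower and 0 higher. *M*-cKO replicate 3 differed from its sister libraries in other markers, with striatal sums of 32.3, 31.2 and 11.8 RPKM in replicates 1 to 3 (15.9 to 18.6 in Ctrl) and excitatory neuron sums of 779, 737 and 999 RPKM. The part of these cells in the footprints of the members was not tested.

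**Figure D4:**
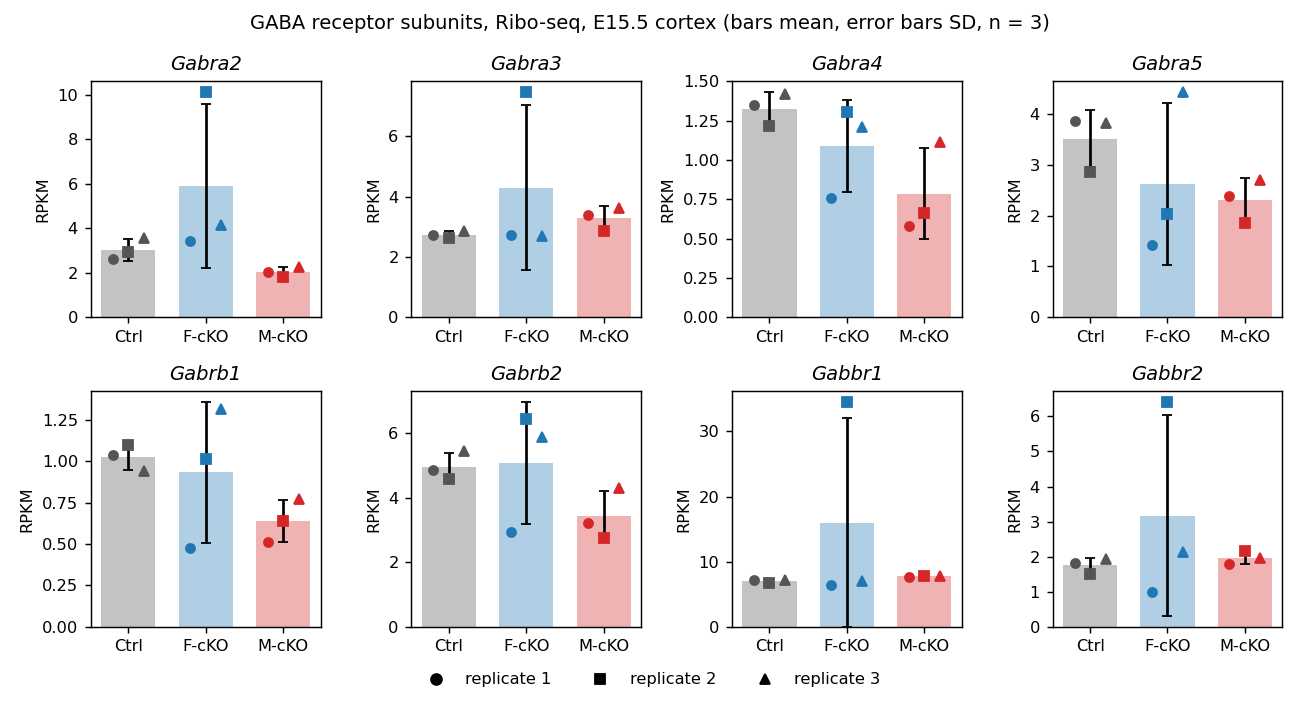
Ribo-seq RPKM of the 8 subunit genes by genotype (Ctrl, *F*-cKO, *M*-cKO), with bars for the mean, error bars for the SD (n = 3) and 1 symbol per replicate number. *F*-cKO replicate 2 (square) stands far above all other libraries for *Gabbr1* (34.5), *Gabbr2* (6.41), *Gabra2* (10.1) and *Gabra3* (7.46).

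In *F*-cKO Ribo-seq the values of 4 members turned on 1 library. *Gabbr1* was at 6.42, 34.5 and 6.97 RPKM, so that replicate 2 had 5.15 times the mean of its sister libraries. *Gabbr2* was at 0.980, 6.41 and 2.13 RPKM (4.13 times), *Gabra2* at 3.41, 10.1 and 4.13 (2.68 times) and *Gabra3* at 2.73, 7.46 and 2.71 (2.74 times). In the other 4 members replicate 2 was not raised in this way. *Gabra4* was at 0.756, 1.31 and 1.21 RPKM, *Gabra5* at 1.42, 2.04 and 4.44, *Gabrb1* at 0.474, 1.01 and 1.31 and *Gabrb2* at 2.92, 6.43 and 5.87, and for these 4 the ratio was between 0.695 and 1.46. *Gabra5* was instead raised in replicate 3, at 2.57 times the mean of its sisters, and its log2 fold change was −0.37 with all libraries and −0.89 without replicate 3. Over all genes the median ratio in replicate 2 was 0.824, and 19.3% of 14322 genes were over 2-fold higher there than the mean of its sisters. Endothelial markers (4 genes) summed to 71.7 RPKM in this library, compared with 4.28 and 5.85 in its sisters and 4.28 to 7.14 in Ctrl. Meningeal markers summed to 30.9 RPKM in it, compared with 4.59 and 14.5 in its sisters and at most 17.1 in Ctrl. Excitatory neuron markers were lower, at 585 RPKM compared with 908.2 and 884.5 in its sisters. What set this library apart was not tested.

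No member was called in *F*-cKO Ribo-seq, where the share of genes called was 0% of 14335 (318 had an unadjusted *P* below 0.05, and no member was among those with the edgeR test). With all libraries the log2 fold changes were 1.31 ± 0.72 SE for *Gabbr1*, 1.05 ± 0.49 for *Gabra2*, 0.97 ± 0.69 for *Gabbr2* and 0.74 ± 0.49 for *Gabra3*. Without replicate 2 they were −0.10 ± 0.13, 0.29 ± 0.19, −0.18 ± 0.33 and −0.04 ± 0.17. The median over the members went from 0.42 to −0.18, so its sign rested on this library. DESeq2 called 0 members as well.

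Differential TE, the interaction of assay and genotype, was higher in *M*-cKO for 1 of 8 members, *Gabra2*, and 1.65% of 13208 genes were called higher in this fit. Its log2 change in TE was 1.00 ± 0.23 SE (adjusted *P* = 0.0342 by edgeR). The RNA of *Gabra2* was at 35.2% of Ctrl and its footprints at 67.8%. The change was between 0.77 and 1.15 in all 18 alternatives and called in 11 of them, with adjusted *P* values from 0.00209 to 0.505. Each of the fits without an *M*-cKO RNA-seq library, without Ctrl replicate 3 of RNA-seq, or without Ctrl replicate 1 or 2 of Ribo-seq lost the call. Over all genes these fits had 47 to 231 calls, compared with 404 in the main fit.

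*Gabrb1*, whose RNA and footprints were both lower in *M*-cKO, had a log2 change in TE of 0.34 ± 0.24 SE (adjusted *P* = 0.451 by edgeR). *Gabbr2*, *Gabra3* and *Gabbr1* had changes of 0.55 ± 0.18, 0.47 ± 0.19 and 0.28 ± 0.10 SE that did not pass the test (adjusted *P* = 0.0985, 0.166 and 0.127). *Gabra5*, *Gabrb2* and *Gabra4* were at 0.05 ± 0.28, −0.16 ± 0.25 and −0.21 ± 0.30 SE. The median over the members was 0.31, compared with 0.00 over all genes.

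**Figure D5:**
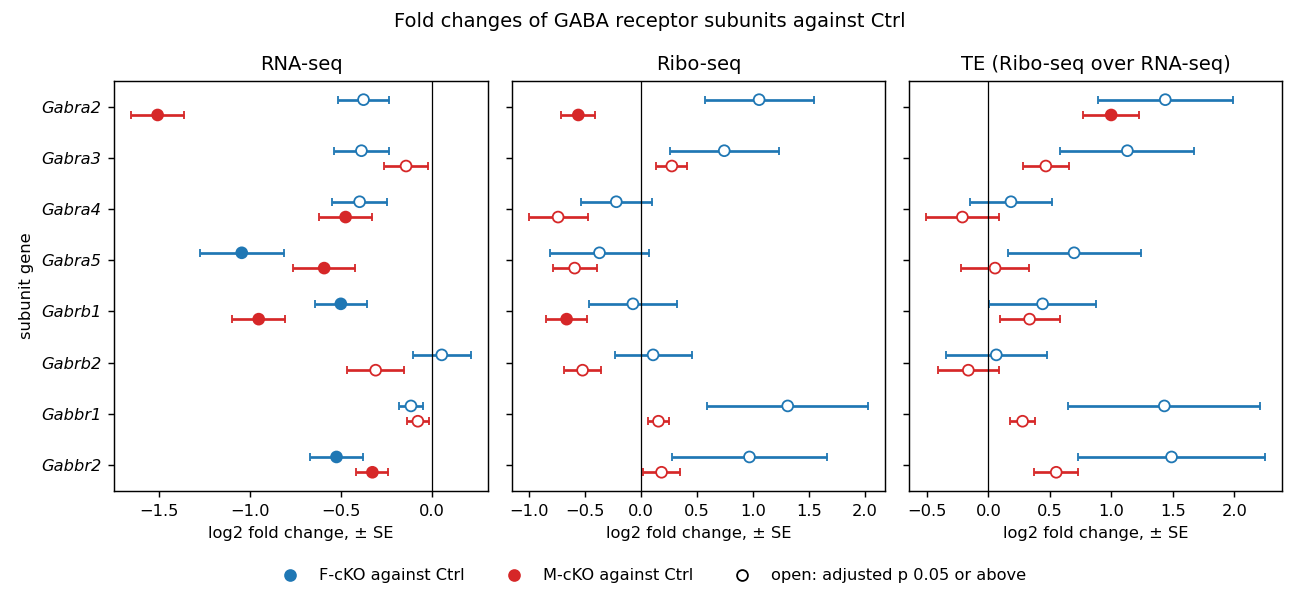
Log2 fold change (± SE) of the 8 subunit genes in *F*-cKO (blue) and *M*-cKO (red) against Ctrl for RNA-seq, Ribo-seq and TE, with filled symbols for an adjusted *P* below 0.05. *Gabra2* in *M*-cKO is at −1.51 in RNA-seq, −0.56 in Ribo-seq and 1.00 in TE, and the wide bars of *F*-cKO in Ribo-seq and TE include replicate 2.

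In *F*-cKO no member was called for TE, as was the case for 0% of 13225 genes (1090 had an unadjusted *P* below 0.05, among them *Gabra2* by the edgeR test). *Gabra2* had a log2 change in TE of 1.44 ± 0.55 SE with all libraries and 0.69 ± 0.25 without Ribo-seq replicate 2 (adjusted *P* = 0.585 and 0.266, with a range of 0.179 to 0.847 over the alternatives). *Gabbr1* went from 1.43 to 0.04 and *Gabbr2* from 1.49 to 0.38 when that library was left out. *M*-cKO and *F*-cKO were not distinguished in footprints or TE by any member, with 0% of 14262 and 0% of 13162 genes called and 1154 and 499 at an unadjusted *P* below 0.05. Of the members only *Gabra2* had an unadjusted *P* below 0.05 there, for footprints (log2 fold change −1.60 ± 0.49 SE, and −0.83 ± 0.19 without *F*-cKO replicate 2, adjusted *P* = 0.584 and 0.272 by edgeR).

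The rest of the GABA pathway was described with gene lists. Their counts stand against 14.1% of all genes lower and 15.5% higher in *M*-cKO RNA-seq, and 9.57% lower and 11.5% higher in *F*-cKO. Of 13 further GABA-A subunit genes 8 were tested in RNA-seq. In *M*-cKO 2 of them were lower and 0 higher, and in *F*-cKO 1 was lower and 1 higher. The higher gene in *F*-cKO was *Gabrq*, which encodes the theta subunit (log2 fold change 1.10 ± 0.33 SE, adjusted *P* = 0.0420 by edgeR). The list medians were −0.02 in *M*-cKO and −0.45 in *F*-cKO.

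Of 8 genes for GABA-B auxiliary subunits and the potassium channels that the receptor opens, 7 were tested, and 2 were lower in *M*-cKO and 0 higher. *Kctd12*, an auxiliary subunit that shapes the time course of GABA-B responses, had a log2 fold change of −0.72 ± 0.08 SE (adjusted *P* = 1.50e-04 by edgeR). *Kcnj3*, a subunit of the potassium channel, had −0.58 ± 0.11 SE (adjusted *P* = 0.00301). *Kctd12* footprints were lower too (−0.68 ± 0.13 SE, adjusted *P* = 0.0181). In *F*-cKO 0 of the 7 were called in RNA-seq.

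Genes for GABA synthesis, transport and breakdown (8 tested) were mostly higher in *M*-cKO, 5 of them with 1 lower (median log2 fold change 0.55). *Slc32a1*, the vesicular GABA transporter, was at 0.86 ± 0.08 SE (adjusted *P* = 5.73e-05), *Gad1*, a GABA-synthesizing enzyme, at 0.57 ± 0.10 (adjusted *P* = 0.00161), and *Abat*, which breaks GABA down, at 0.64 ± 0.12 (adjusted *P* = 0.00188, all by edgeR). The lower gene was *Slc6a11*, a GABA uptake transporter (−0.57 ± 0.14 SE, adjusted *P* = 0.0107). *Gad1* and *Gad2* are also among the 10 interneuron markers given above. In *F*-cKO 1 gene was higher, *Gad2* (0.55 ± 0.10 SE), and 2 were lower, *Slc6a11* (−1.06 ± 0.18) and *Slc6a13* (−2.33 ± 0.44). The meningeal markers that were lower in *F*-cKO moved with these 2, and their part in this was not tested.

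Of 14 genes for receptor anchoring and trafficking, 4 were higher and 2 lower in *M*-cKO, and 2 were higher and 3 lower in *F*-cKO, so that the 2 lower in *M*-cKO and the 2 higher in *F*-cKO are near the shares over all genes. *Hap1*, which binds GABA-A receptors during recycling, was higher in *M*-cKO (1.24 ± 0.14 SE) and in *F*-cKO (0.61 ± 0.16). *Shisa7*, a GABA-A auxiliary protein, was lower in both (−0.54 ± 0.09 and −0.41 ± 0.08), as was *Gabarapl1* (−0.25 ± 0.06 and −0.27 ± 0.07), of a family that binds GABA-A receptors and autophagy proteins. Also higher in *M*-cKO were the trafficking genes *Trak1* (0.41 ± 0.06 SE) and *Zdhhc3* (0.23 ± 0.06). In *F*-cKO *Rdx*, which anchors *Gabra5* receptors, was higher (0.34 ± 0.07 SE) and *Gabarapl2* lower (−0.21 ± 0.06). Of 2 chloride transporter genes, *Slc12a2*, which loads immature neurons with chloride, was lower in *M*-cKO (−0.26 ± 0.08 SE, adjusted *P* = 0.0249 by edgeR). *Slc12a5*, which extrudes chloride in mature neurons, was at 0.29 ± 0.13 SE (adjusted *P* = 0.119). Of 3 tested subunits of the glycine receptor, a related chloride channel, *Glrb* was lower in *M*-cKO (−0.32 ± 0.11 SE, adjusted *P* = 0.0476).

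For each member the 2 genes whose log2 CPM ran most alike over the 9 RNA-seq libraries were found, as a description of libraries that share 3 groups and their depth. *Cnr1*, the cannabinoid receptor gene, and *Clstn2* were closest to *Gabra2* (Pearson r = 0.991 and 0.989), *Ccdc112* and *Lmbr1* to *Gabrb1* (0.992 and 0.989) and *Frmpd4* and *Med30* to *Gabra4* (0.954 and 0.953). *Caly* and *Pcdhb20* were closest to *Gabra5* (0.987 and 0.983), and *Trim23* and *Myt1l* to *Gabrb2* (0.976 and 0.963). *Pgr* and *Syp*, a synaptic vesicle protein gene, were closest to *Gabbr2* (0.989 and 0.988). *Syt1*, the calcium sensor of transmitter release, came second for *Gabra3* (0.967), and *Vopp1* second for *Gabbr1* (0.970).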

How the data were processed

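RNA-seq and Ribo-seq of E15.5 cortex were analysed in 18 libraries, grouped by the genotype in the labels. The authors deposited read counts per gene and FPKM for RNA-seq (HISAT2 2.0.5) and counts per gene and RPKM for Ribo-seq (TopHat2, HTSeq), with mm10 as the build per the labels. The tool for RNA-seq counts is not given in the sources used here. Among 54838 genes with Ribo-seq counts, 40490 have a value in 1 library alone and were left out, and 14348 were used.

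Counts were fitted in R 4.3.3 with edgeR 4.0.16 (filterByExpr with minimum count 10 and total 15, TMM, quasi-likelihood test, Benjamini-Hochberg over all genes tested, threshold 0.05) over the 6 libraries of each comparison, or 12 with an assay by genotype interaction for TE. The scripts were tested on simulated data. RiboDiff was not run. *P* values measure the spread between libraries labelled as biological repeats. Same-numbered libraries did not deviate together in every pair, so replicate numbers were not taken as pairs.

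Members, lists and tests were chosen with earlier results of these data known. By rule the text names the members, the called genes of a list with 5 or fewer calls, otherwise the 3 with the smallest *P* in each direction, and the 2 genes most alike to each member. List genes were named for RNA-seq against Ctrl, and *Kctd12* footprints, *Commd8*, *Gabrg1*, *Guf1* and *Sgcb* were added after their values were seen. Some genes that the rule covers are not reported here. Symbols, coordinates and start windows are from RefSeq (GRCm38.p6), and windows were found for 8 of 8 members.

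Alternatives were DESeq2 1.42.0, RLE scaling, no filter, all groups in 1 fit, a replicate block, each library left out, protein-coding genes only (Ribo-seq and TE) and, for TE ratios, a pseudocount of 0.1 and geometric means.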

Additional observations from a re-analysis of the deposited data

Results flagged for a closer look

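The change of *Gabra2* RNA differed between the knockouts. *M*-cKO over *F*-cKO gave a log2 fold change of −1.14 in RNA-seq, tested directly between these groups, and all 3 *M*-cKO libraries (2.68 to 2.97 FPKM) lay below all *F*-cKO libraries (5.96 to 6.37). The change of *Gabrb1* RNA differed in the same direction, with a log2 fold change of −0.46 and *M*-cKO libraries (0.735 to 0.958 FPKM) below those of *F*-cKO (1.01 to 1.28). Groups of 3 libraries are too small for a check of single outlying values, and Ribo-seq *F*-cKO replicate 2 is described with the results above.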

How the results depend on the processing

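The members called lower in *M*-cKO RNA-seq numbered 5, and 2 to 6 when 1 library was left out. In *F*-cKO RNA-seq there were 3, with 6 under no filter, 1 with a replicate block and 0 to 6 with 1 library left out. Between *M*-cKO and *F*-cKO RNA-seq 2 members were called, both lower, with 4 under no filter (3 lower and 1 higher) and 1 to 3 with 1 library left out. The higher member was *Gabra5*, which was also called higher with DESeq2 and without *F*-cKO replicate 1. In *M*-cKO Ribo-seq there were 2, with 0 under RLE scaling, 0 with all groups in 1 fit, 0 with a replicate block and 0 to 4 with 1 library left out. For TE in *M*-cKO there was 1, with 0 when all groups were fitted together and 0 to 1 with 1 library left out. The replicate block changed no other count of members by over 1.5 times. The remaining 4 comparisons had 0 called members under every alternative run. The cause of these changes was not tested.

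Log2 values that changed sign belonged to members that were not called. With 1 library left out, *Gabrb2* in *F*-cKO ranged from −0.084 to 0.19 in RNA-seq, from −0.18 to 0.41 in Ribo-seq and from −0.21 to 0.37 in TE. Its other negative TE values were −0.033 with a replicate block, −0.060 without Ctrl replicate 3 of RNA-seq, and −0.061 and −0.0084 without *F*-cKO replicate 3 of RNA-seq or Ribo-seq. In *F*-cKO Ribo-seq *Gabbr1* ranged from −0.10 to 1.77, *Gabbr2* from −0.18 to 1.42, *Gabra3* from −0.036 to 1.08, *Gabra4* from −0.44 to 0.016 and *Gabrb1* from −0.29 to 0.27, and for TE *Gabra4* from −0.018 to 0.42. *Gabra5* in *M*-cKO TE ranged from −0.17 to 0.25, with −0.073 without Ctrl replicate 2 and −0.050 without *M*-cKO replicate 3 of Ribo-seq. Of *M*-cKO over *F*-cKO, *Gabbr1* RNA ranged from −0.0090 to 0.072.

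In *M*-cKO over *F*-cKO Ribo-seq *Gabbr1* ranged from −1.59 to 0.27, *Gabra3* from −0.79 to 0.33, *Gabbr2* from −1.21 to 0.39 and *Gabra5* from −0.52 to 0.31. For TE in that comparison *Gabra2* ranged from −0.73 to 0.32, *Gabrb2* from −0.52 to 0.064, *Gabbr1* from −1.53 to 0.25, *Gabra3* from −0.93 to 0.11, *Gabbr2* from −1.36 to 0.20 and *Gabrb1* from −0.43 to 0.20. Its other positive values were 0.018 with a replicate block, 0.026 without *F*-cKO replicate 2 of Ribo-seq, and 0.023 and 0.086 without *M*-cKO replicate 1 of RNA-seq or Ribo-seq. Of all log2 values recomputed, 883 kept their direction and side of the threshold, 51 lost and 17 gained a call, and 33 changed sign. The TE ratios of the members moved by less than the SD between libraries in 64 of 64 recomputations. A mean of 3 libraries can hardly move by that much when 1 is left out, so this count does not show stability.

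Ribo-seq libraries differed 3.27-fold in total counts, and the library with the fewest, *F*-cKO replicate 2, was also the one that decided the sign of several members.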
